A study of Homo sapiens with 6 samples.

Results

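The genes described here belong to the Hippo pathway and were chosen by name: the angiomotins AMOT, AMOTL1 and AMOTL2, the LIM protein gene AJUBA, the coactivators YAP1 and WWTR1, the DNA-binding partner TEAD1, and the target genes CTGF, CYR61 and ANKRD1. All 10 were found among the 26475 genes of the deposited table, CTGF and CYR61 under these older symbols (now CCN2 and CCN1). Expression was measured by RNA sequencing in HepG2, a human liver cancer line. Control cells express the reporter eGFP (enhanced green fluorescent protein). The other cells express TAF2, which is part of TFIID, the complex that recognises core promoters. Both groups were growing exponentially and had 3 libraries each. The labels give no promoter or vector for either protein, and do not say whether a group is 1 clone or whether its libraries came from separate cultures, so the spread behind the p-values may be technical.

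The Hippo pathway restrains tissue growth. Its core kinases, MST1 and MST2 (genes STK4 and STK3) and LATS1 and LATS2, phosphorylate YAP and TAZ (the product of WWTR1) and keep them in the cytoplasm, and without that phosphorylation YAP and TAZ enter the nucleus and bind TEAD factors on target genes. Angiomotins are junctional scaffolds that bind YAP and LATS kinases, while AJUBA binds and restrains LATS kinases. In liver, YAP activity is known for its effect on organ size and for its role in liver cancer. Transcript levels do not show whether YAP or TAZ is phosphorylated or where it is in the cell.

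Library totals ran from 22276308 to 28024004 counts. TAF2 itself was at 35.85, 40.4 and 37.5 CPM (read counts scaled to a common library total) in the eGFP libraries and at 50.1, 48.3 and 47.4 CPM in the TAF2 libraries, a log2 fold change of 0.36 (edgeR, adjusted p = 1.44e-08, SE 0.0459). Fold changes are given throughout as TAF2 against eGFP. Of 10 hepatocyte markers 8 fell and 1 rose, against 22.4% lower and 20.6% higher over all tested genes. Among those that fell, TTR changed little (log2 fold change -0.098, edgeR adjusted p = 0.0391) and its groups overlapped. The 1 that rose, FGB (log2 fold change 0.64, edgeR adjusted p = 3.74e-18), lies on chromosome 4. Off chromosomes 4 and 11, which are set apart below, 5 of 6 hepatocyte markers fell and 0 rose. The share of all tested genes off these chromosomes is not given here. The 10 markers summed to 48300 to 49800 CPM in eGFP and 38800 to 40600 CPM in TAF2 libraries. APOB was the largest part, at 23030 and 19630 CPM on average. The fibroblast and stellate list summed to 8.18 to 9.22 CPM in eGFP and 20.4 to 21.8 CPM in TAF2. Nearly all of that was PDGFRB, at 7.87 and 19.6 CPM on average, while DCN and LUM had no count in any library, and 2 of 7 genes of this list were tested, both higher. Of the cholangiocyte markers, 2 of 4 tested genes rose (KRT19 and SPP1) and 2 fell (SOX9 and EPCAM). The fall of SOX9 was small (log2 fold change -0.07, edgeR adjusted p = 0.044) and its groups overlapped. The list summed to 878 to 894 CPM in eGFP and about 1320 CPM in each TAF2 library. Most of that difference was SPP1, at 336 CPM in eGFP and 739 CPM in TAF2 libraries on average. SPP1 lies on chromosome 4, and off chromosomes 4 and 11 the list had 1 rise and 2 falls among 3 tested genes. KRT7 was at or near 0 and CFTR at 0. Endothelial markers stayed between 1.35 and 2.37 CPM in sum, with TEK and ERG at 0 and 0 of 1 tested gene called. Blood cell markers summed to 1940 to 2060 CPM in eGFP and 2270 to 2320 CPM in TAF2, nearly all of it lysozyme (LYZ), with PTPRC and CD3E at 0 in every library, and 1 of 4 tested genes rose and 2 fell. The part of these markers in the results on Hippo genes was not tested.

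AMOT had by far the largest difference among these genes and fell with TAF2, whereas AMOTL2, AJUBA and CTGF rose by 1.39-fold to 1.68-fold. YAP1 fell, and WWTR1 and ANKRD1 rose, by 1.11-fold to 1.16-fold, while TEAD1 and CYR61 did not pass the test. Of the 9 tested genes 5 rose and 2 fell at an edgeR quasi-likelihood p under 0.05 after Benjamini-Hochberg adjustment over all 12902 tested genes. Across all tested genes 43.0% were called, 20.6% higher and 22.4% lower, so a call by itself does not set these genes apart. In 8 of the 9 the libraries of the 2 groups did not overlap, against 50.6% of all tested genes. AMOT was the only one called (2.89% of all genes were) when tested against a change of 1.5-fold.

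**Figure D1:**
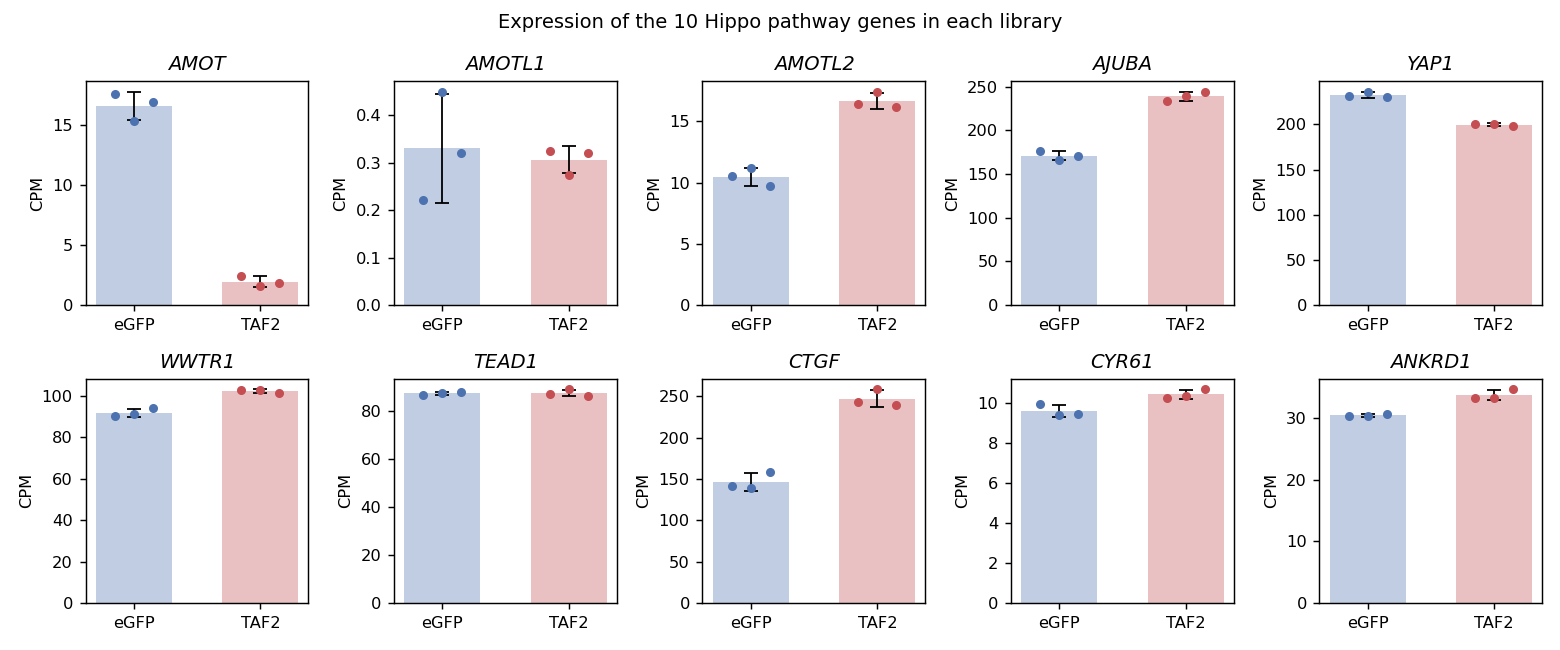
CPM of each of the 10 genes in every library. Points are libraries, bars are group means and error bars are SD (3 libraries per group), and each vertical axis starts at 0. AMOT falls from 16.6 to 1.95 CPM, AMOTL2, AJUBA and CTGF sit higher in all 3 TAF2 libraries, and the TEAD1 groups overlap.

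AMOT, the founding angiomotin, held 17.6, 15.3 and 17.0 CPM in the eGFP libraries and 2.47, 1.57 and 1.82 CPM in the TAF2 libraries. These rest on 477, 341 and 423 reads against 61, 40 and 51. The lowest eGFP library lay far above the highest TAF2 library, and the groups did not overlap. The mean went from 16.6 ± 1.16 to 1.95 ± 0.466 CPM (SD over 3 libraries each, n = 3), a log2 fold change of -3.10 (edgeR, adjusted p = 2.41e-24, SE 0.118), or 8.55-fold lower. This was the 19th lowest fold change of 12902, and 22 genes (0.171%) changed by at least as much in absolute size. In bulk RNA, fewer cells expressing AMOT and less AMOT RNA per cell cannot be told apart. Across 14 other settings of the analysis the value stayed between -3.28 and -2.96.

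AMOT lies on chromosome X from 112774877 to 112840831 (GRCh38.p14). The nearest tested gene on its left is ALG13 (111681170 to 111760649), with a log2 fold change of 0.19, and the nearest on its right is PLS3 (115561174 to 115650861), with 0.24. Both differ from AMOT in sign. Of the 11 other genes of at least 5 CPM within 5 Mb, 4 were lower and the median was 0.07, with a range from -0.74 to 0.50. The fall was thus not shared by this part of the chromosome. The bases upstream of its RefSeq start, shown because AMOT changed most, are given 5′ to 3′ on the minus strand (chrX:112840832-112841081, GRCh38.p14, RefSeq).
AMOT: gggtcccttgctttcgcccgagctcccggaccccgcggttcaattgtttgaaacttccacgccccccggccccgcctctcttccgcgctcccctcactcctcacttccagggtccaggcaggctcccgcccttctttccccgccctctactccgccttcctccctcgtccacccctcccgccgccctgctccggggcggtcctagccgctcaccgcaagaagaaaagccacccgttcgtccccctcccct
This stretch and the 50 bases after the start hold no copy of GGAATG, the core letters bound by TEAD factors, and none of TATAAA, the TATA box letters, on either strand.

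AMOTL2, an angiomotin that is itself a YAP target, moved the other way. Its levels were 10.51, 11.2 and 9.70 CPM in the eGFP libraries and 16.4, 17.4 and 16.2 CPM in the TAF2 libraries. Every TAF2 library was above every eGFP library. The mean rose from 10.46 ± 0.729 to 16.7 ± 0.661 CPM (SD over 3 libraries each, n = 3), a log2 fold change of 0.67 (edgeR, adjusted p = 1.05e-09, SE 0.0768). AMOTL2 lies on chromosome 3 (134355345 to 134375417), where its tested neighbours RYK (0.13) and ANAPC13 (0.08) had small values.

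AMOTL1 was close to undetected, with 6, 10 and 8 counts in eGFP and 8, 7 and 9 counts in TAF2 libraries, and was left out of the test by the filter on low counts. The groups overlapped. With every gene that had a count kept, its log2 fold change was -0.07 (SE 0.511, edgeR adjusted p = 0.948), and with so few reads a moderate difference in either direction was not detectable. It lies on chromosome 11 (94706460 to 94876748).

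Per kilobase of transcript, the scale on which genes can be compared, AMOT and AMOTL2 were close in control cells and far apart with TAF2. AMOT went from 2.34 ± 0.163 to 0.275 ± 0.0656 CPM per kb and AMOTL2 from 2.69 ± 0.187 to 4.29 ± 0.170 CPM per kb (SD over 3 libraries each, n = 3). AMOT made up 47.6%, 42.5% and 48.5% of the summed angiomotin level in the eGFP libraries, and 7.57%, 4.67% and 5.74% in the TAF2 libraries. The sum of the 3 genes differed much less, at 5.21, 5.08 and 4.92 CPM per kb in eGFP and 4.60, 4.73 and 4.46 CPM per kb in TAF2. All 3 TAF2 sums were below the 3 eGFP sums, and this difference in sums was not tested. The ratio of AMOTL2 to AMOT per kb was 1.05 to 1.33 in eGFP libraries and 12.1 to 20.3 in TAF2 libraries. These levels use the mean length of the transcripts listed for a gene, and the gene table does not show which of them were present.

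**Figure D2:**
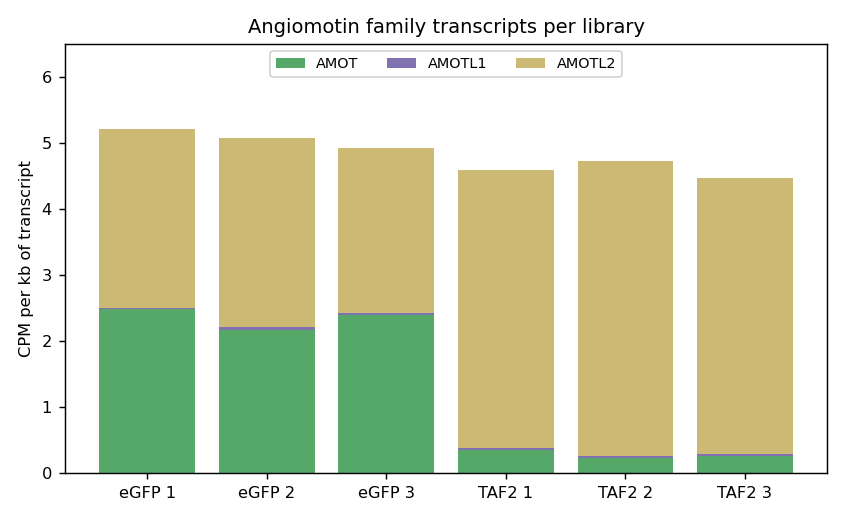
Stacked levels of AMOT, AMOTL1 and AMOTL2 in CPM per kb of transcript, 1 bar per library. AMOT makes up 42.5% to 48.5% of the bar in eGFP and 4.67% to 7.57% in TAF2 libraries, while bar heights run from 4.92 to 5.21 in eGFP and from 4.46 to 4.73 in TAF2.

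AJUBA, whose product restrains LATS kinases at junctions, was at 177, 166 and 171 CPM in the eGFP libraries and at 234, 239 and 244 CPM in the TAF2 libraries. All 3 TAF2 libraries stood above the eGFP range. The mean rose from 171 ± 5.29 to 239 ± 5.22 CPM (SD over 3 libraries each, n = 3), with a log2 fold change of 0.48 (edgeR, adjusted p = 3.36e-19, SE 0.0261). AJUBA lies on chromosome 14 (22971177 to 22982551), and the median log2 fold change of the other 357 genes of at least 5 CPM there was 0.02. Of the 2 other Ajuba family genes, WTIP rose from 11.2 to 15.8 CPM (log2 fold change 0.49, edgeR adjusted p = 5.98e-07), and LIMD1 had 0.05 (edgeR adjusted p = 0.386).

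YAP1, which encodes the coactivator YAP, was at 231, 236 and 229.8 CPM in eGFP and at 200.4, 200.4 and 198 CPM in TAF2 libraries. The groups did not overlap, and the mean fell from 232 ± 3.23 to 199.5 ± 1.63 CPM (SD over 3 libraries each), with -0.22 as the log2 fold change (edgeR, adjusted p = 4.49e-10, SE 0.0242). YAP1 lies on chromosome 11 (102110447 to 102233424), where 94.6% of the other 591 genes of at least 5 CPM were lower and the median was -0.27. The 8 such genes within 5 Mb were all lower, with a median of -0.37, and the nearest on its right, the apoptosis inhibitor BIRC3, fell by 1.65 on the log2 scale. The change of YAP1 thus lay 0.05 above the median of its chromosome. A change of YAP1 alone and one shared by the chromosome cannot be told apart from these libraries.

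WWTR1, which encodes the YAP paralog TAZ, was at 90.4, 91.15 and 94.1 CPM in eGFP and at 103, 102.8 and 101.6 CPM in TAF2 libraries. It rose by 0.16 on the log2 scale (SE 0.0309, edgeR adjusted p = 4.82e-05), from 91.9 ± 1.94 to 102.5 ± 0.767 CPM (SD over 3 libraries each, n = 3). On chromosome 3 (149517235 to 149724788), its 19 neighbours of at least 5 CPM within 5 Mb had a median of -0.000574, 10 of them lower. The overlapping WWTR1-AS1 had at most 8 counts in a library. YAP1 and WWTR1 therefore moved in opposite directions, by 1.16-fold and 1.12-fold. As given above, the fall of YAP1 cannot be told apart from a change shared by its chromosome.

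TEAD1, which brings YAP and TAZ to DNA, was at 86.4, 87.3 and 87.9 CPM in eGFP and at 87.0, 88.9 and 86.2 CPM in TAF2 libraries. The groups overlapped, and the log2 fold change was 0.0025 (95% interval -0.06 to 0.07, edgeR adjusted p = 0.96). TEAD1 is also on chromosome 11 (12674421 to 12944737), 0.27 above the median of that chromosome, and 33 of the 36 genes of at least 5 CPM within 5 Mb were lower.

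**Figure D3:**
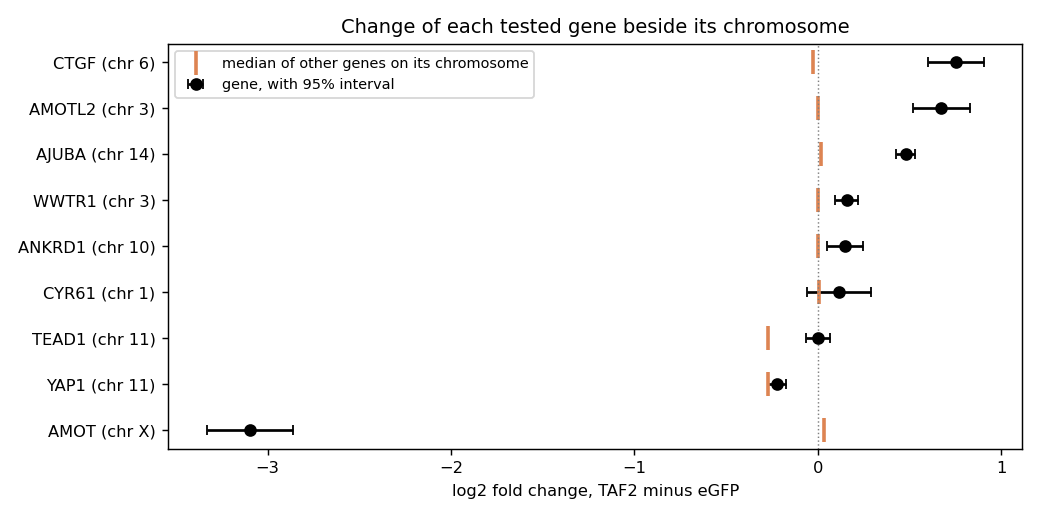
Log2 fold change of the 9 tested genes (points, with 95% intervals from the edgeR fit) and the median log2 fold change of the other genes of at least 5 CPM on the same chromosome (vertical marks). AMOT lies far below the mark of chromosome X at 0.04, YAP1 lies 0.05 above and TEAD1 0.27 above the mark of chromosome 11.

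The classic target genes did not move by equal amounts. CTGF encodes a secreted matricellular protein. It was at 141.5, 139.3 and 158.9 CPM in eGFP and at 243.3, 258.2 and 239.3 CPM in TAF2 libraries. The lowest TAF2 library was well above the highest eGFP library. Its mean rose from 147 ± 10.75 to 247 ± 9.94 CPM (SD over 3 libraries each, n = 3), a log2 fold change of 0.75 (edgeR, adjusted p = 0.000206, SE 0.0604). The robust fit treated the replicate spread of CTGF as unusually wide and gave it 5.28 degrees of freedom, against 40.4 for AJUBA, which enlarges its p. On chromosome 6 (131948176 to 131951372), its nearest tested neighbour ENPP1, a nucleotide pyrophosphatase gene, also rose (0.44, edgeR adjusted p = 1.24e-16), while STX7 on the other side did not pass the test (0.11, edgeR adjusted p = 0.0577).

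The upstream bases of CTGF are shown because it rose most of the 3 classic targets and because they carry the letters bound by TEAD factors in a close cluster. Capitals mark GGAATG, read on both strands, and TATAAA. The CTGF stretch is chr6:131951374-131951622 and the ANKRD1 stretch chr10:90921277-90921337, both on the minus strand of GRCh38.p14 from RefSeq, 5′ to 3′, and both stop before the first exon annotated by GENCODE.
CTGF: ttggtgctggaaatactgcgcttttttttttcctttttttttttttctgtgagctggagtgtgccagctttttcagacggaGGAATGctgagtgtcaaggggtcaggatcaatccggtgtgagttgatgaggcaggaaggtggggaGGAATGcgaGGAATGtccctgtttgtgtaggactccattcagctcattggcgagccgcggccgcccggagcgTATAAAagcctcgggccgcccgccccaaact
ANKRD1: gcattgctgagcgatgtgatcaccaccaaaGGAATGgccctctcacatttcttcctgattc
CTGF holds 3 copies of GGAATG, starting 169, 104 and 95 bases before its RefSeq start, and TATAAA 32 bases before it. Over 35116 promoter windows of 300 bases, 14% held GGAATG on either strand at least once and 0.128% held it 3 or more times, and 11.5% held TATAAA. ANKRD1 holds 2 copies in its full window, at 220 and 128 bases, of which the first lies in the printed stretch, and 1.37% of windows held 2 or more. AMOTL2 has 1 copy in reverse (CATTCC), 69 bases before its inner start, and YAP1 and AJUBA have 1 each in a window. None of these copies lies in a part of its window that precedes every exon annotated by GENCODE. There were 11 windows for 8 of the 10 genes, so some genes had more than 1, while the shares above are per window. A match is a description of letters and not a measured binding site.

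ANKRD1, an ankyrin repeat protein gene induced by YAP in many cell types, was at 30.35, 30.4 and 30.8 CPM in eGFP and at 33.4, 33.4 and 34.7 CPM in TAF2 libraries. The groups did not overlap, but the difference was small, at a log2 fold change of 0.15 (edgeR, adjusted p = 0.011, SE 0.0486). It was not called by DESeq2 (adjusted p = 0.0713) or without TAF2 replicate 3 (edgeR adjusted p = 0.0571), and over all settings its adjusted p ran from 0.00553 to 1. CYR61, the secreted matricellular relative of CTGF, was at 9.96, 9.40 and 9.46 CPM in eGFP and at 10.26, 10.32 and 10.67 CPM in TAF2 libraries. All 3 TAF2 libraries were again higher, yet the difference did not pass the test (log2 fold change 0.12, 95% interval -0.06 to 0.29, edgeR adjusted p = 0.295). The upper end of that interval lies below the value of CTGF. Whether the 2 genes differ in response was not tested.

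Compared per kilobase in control cells, AJUBA (67.1 ± 2.07), CTGF (62.7 ± 4.60) and YAP1 (62.3 ± 0.866 CPM per kb) were the highest of the 9 genes with a known transcript length, and the means of CTGF and YAP1 lay within 1 SD of each other. TEAD1 followed at 34.3 ± 0.299, ANKRD1 at 15.4 ± 0.126, CYR61 at 4.20 ± 0.133, AMOTL2 at 2.69 ± 0.187, AMOT at 2.34 ± 0.163 and AMOTL1 at 0.0371 ± 0.0129 CPM per kb (SD over 3 libraries each, n = 3). With TAF2, CTGF reached 106 ± 4.25 CPM per kb, above AJUBA at 93.5 ± 2.05 and YAP1 at 53.5 ± 0.436. Averaged over both groups, CTGF lay at percentile 93.5 and AMOT at percentile 15.1 of 11900 tested genes with a length.

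By the measure of distance over the 6 libraries (log2 CPM centred on each gene's mean), the profiles closest to that of AMOT among 11973 genes of at least 1 CPM were those of NOS2, TNNI2 and COBL. NOS2, the inducible nitric oxide synthase, went from 2.01 to 0.208 CPM on average, TNNI2, a troponin of fast muscle, from 23.0 to 3.33 CPM, and the actin nucleator COBL from 40.0 to 3.77 CPM. In the TAF2 libraries NOS2 had only 8, 4 and 4 counts, each below 1 CPM, so it met the 1 CPM limit through the eGFP libraries. The 3 genes lie on chromosomes 17, 11 and 7. This is a likeness of 2-group profiles, which any gene with a fall of that size would show.

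The rest of the pathway was described with 7 lists. Apart from the genes above they hold 92 genes, of which 82 were tested and 42 (51.2%) were called, 30 higher and 12 lower, against 43.0% of all tested genes. Their median log2 fold change was 0.03, against -0.0027 over all tested genes. Without eGFP replicate 2 the lower calls numbered 7. Chromosomes 4 and 11 were set apart because of shifts described for these same data, so the split is no independent test. Of the 8 genes on chromosomes 4 and 11, 6 fell and 0 rose, and off these chromosomes 30 of 74 rose and 6 fell. Over all chromosomes 20.6% of tested genes were called higher and 22.4% lower. The shares of all tested genes on and off chromosomes 4 and 11 are not given here, so these counts lack a matching baseline. The log2 fold changes of the 82 genes ran from -0.82 to 1.25, so that no other pathway gene changed as much as AMOT.

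Of the 7 genes of the core kinase cassette 1 rose and 2 fell, with a median of -0.03. This is near the share called over all tested genes (43.0%), and the counts were not stable: DESeq2 and the fit without eGFP replicate 2 each called 0 higher and 1 lower. LATS2, a kinase of YAP and also a YAP target, rose from 38.3 to 42.5 CPM (log2 fold change 0.15, edgeR adjusted p = 0.00899), but was not called by DESeq2 (adjusted p = 0.0541) or by edgeR without eGFP replicate 2 (adjusted p = 0.0517). MOB1B, a LATS activator on chromosome 4, fell by 0.26. STK3, the gene of MST2, was just past the threshold (-0.20, edgeR adjusted p = 0.0423). Its call was lost in 8 of the 13 settings other than the 1.5-fold test, among them DESeq2 (adjusted p = 0.193) and the edgeR fits that left out eGFP replicate 2 (adjusted p = 0.102) or 3 (0.117), or TAF2 replicate 2 (0.196) or 3 (0.0583). LATS1 (-0.06), STK4 (-0.03), SAV1 (0.11) and MOB1A (-0.01) were not called. Among other kinases that act on LATS or YAP signalling, 3 of 14 tested genes rose and 3 fell (median -0.02). Over all tested genes 20.6% were called higher and 22.4% lower. The AMPK-related kinase NUAK1 rose from 8.49 to 15.3 CPM (0.86, edgeR adjusted p = 7.96e-12) and the microtubule affinity kinase MARK4 rose by 0.37. MARK2 and MAP4K2, both on chromosome 11, had -0.25 and -0.30. MAP4K4 (-0.03) and the TAO kinase gene TAOK1 (-0.05) were not called.

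Upstream scaffolds and polarity genes rose in 9 of 20 tested members and fell in 3, with a median of 0.06. The shares over all tested genes were 20.6% higher and 22.4% lower. The largest rise was that of WWC3, a relative of the KIBRA scaffold, from 3.55 to 7.58 CPM (log2 fold change 1.10, edgeR adjusted p = 4.18e-10), and WTIP followed. KIBRA itself (WWC1, 0.28) and the polarity scaffold SCRIB (0.15) rose. FRMD6, a junctional activator of the pathway, fell from 3.51 to 1.98 CPM (-0.82), and RASSF1, which binds MST kinases, fell by 0.25. NF2, the tumour suppressor merlin, was just past the threshold (0.12, edgeR adjusted p = 0.0479) and its groups overlapped, and it lost its call in 6 of those 13 settings, among them DESeq2 (adjusted p = 0.155) and the edgeR fits that left out eGFP replicate 1 (adjusted p = 0.146) or 3 (0.224), or TAF2 replicate 1 (0.228) or 2 (0.106). WWC1, FRMD6, RASSF1 and NF2 were chosen after their values were seen.

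For the next 2 lists too, the shares over all tested genes were 20.6% higher and 22.4% lower. The STRIPAK complex, a phosphatase assembly that opposes MST kinases, had 6 rises and 1 fall among 13 tested genes (median 0.06). Its scaffolds STRN4 (0.30, from 91.3 to 112 CPM) and STRN3 (0.21), the MOB family subunit MOB4 (0.28) and the catalytic subunit PPP2CA (0.12) rose, and SIKE1 (-0.12), named after its value was seen, fell. That fall was not called by DESeq2 (adjusted p = 0.111) or by edgeR without eGFP replicate 2 (adjusted p = 0.0503) or TAF2 replicate 3 (adjusted p = 0.0605). Against the same 20.6% and 22.4%, genes for turnover of angiomotins and YAP rose in 5 of 13 and fell in 0 (median 0.04). NEDD4L, a ubiquitin ligase that binds angiomotins, rose from 164.5 to 189.5 CPM (0.20, edgeR adjusted p = 1.44e-08), and FBXW11 (0.14), CSNK1E (0.16) and ITCH (0.09) also rose. The tankyrases TNKS (0.02) and TNKS2 (-0.02), which mark angiomotins for degradation, and their partner ligase RNF146 (0.12) were not called.

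Of the TEAD and VGLL genes 5 of 8 were tested. Of these 5, 1 rose and 0 fell, against 20.6% higher and 22.4% lower over all tested genes. TEAD2 rose from 18.8 to 23.7 CPM (log2 fold change 0.34, edgeR adjusted p = 1.45e-05), while TEAD3 (0.02), TEAD4 (0.06) and the corepressor VGLL4 (-0.07) were not called, though 2 genes of this list were called higher without eGFP replicate 1. VGLL1 and VGLL2 had no count in any library.

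A 22-gene signature of YAP and TAZ targets, known from the literature, includes CTGF, CYR61, ANKRD1 and AMOTL2. Of its 18 tested genes 10 rose and 3 fell, with a median log2 fold change of 0.14 against -0.0027 over all tested genes. Without these 4 genes, 7 of 14 rose and 3 fell, against 20.6% higher and 22.4% lower over all tested genes. IGFBP3, a secreted carrier of insulin-like growth factors, had the largest rise, from 3.09 to 7.33 CPM (log2 fold change 1.25, edgeR adjusted p = 2.17e-10). CRIM1 (0.16) rose as well, as did NUAK2 (0.58), GADD45A (0.18), DOCK5 (0.19) and ASAP1 (0.13), named after their values were seen. NT5E, the ectonucleotidase CD73, fell from 33.5 to 22.6 CPM (-0.57, edgeR adjusted p = 3.27e-12). ARHGEF17 (-0.27) and FJX1 (-0.25), the other 2 past the threshold, lie on chromosome 11. FJX1 (edgeR adjusted p = 0.041) lost its call in 9 of the 13 settings, among them DESeq2 (adjusted p = 0.191) and the edgeR fits without any 1 library except eGFP replicate 1 (adjusted p from 0.0744 to 0.211). AXL (-0.02), MYOF (-0.04), F3 (-0.22) and PTPN14 (-0.07) were not called, and TGFB2, CCDC80 and RBMS3 had no count in any library.

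**Figure D4:**
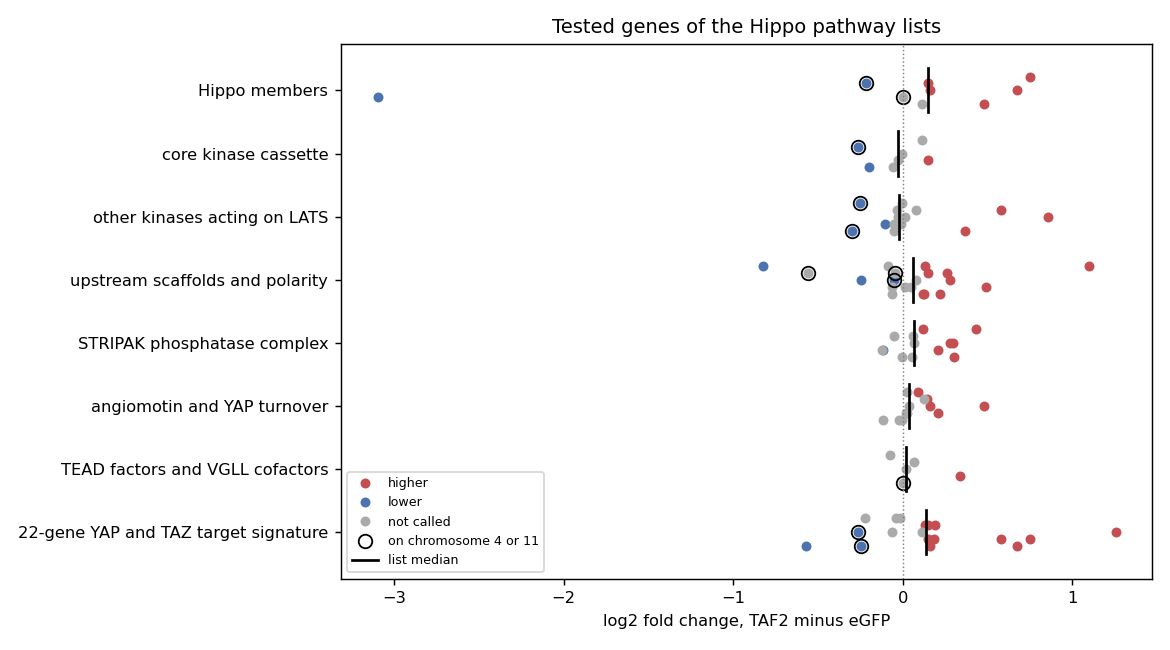
Log2 fold change of each tested gene in the 10-gene set and the 7 other lists. Red points were called higher, blue lower and grey not called, open circles mark genes on chromosomes 4 and 11, and vertical bars are list medians. AMOT at -3.10 stands apart from all other points, which lie between -0.82 and 1.25, and the target signature has the highest median of the 7 other lists at 0.14.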

How the data were processed

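The deposited data are expected counts for each gene in 1 table. Per the submitters' processing notes the authors made it with RSEM on build hg38. Which aligner, annotation release and strand setting were used is not stated here, so reads of overlapping antisense genes cannot be told apart. RSEM shares ambiguous reads between genes, and 4.18% to 4.45% of values in a library were not whole numbers. All 6 library columns were matched to samples by name. Values were rounded to whole counts. Genes passing filterByExpr of edgeR 4.0.16 (R 4.3.3), 12902 in all, were scaled by TMM and compared with the quasi-likelihood test (robust, group only). The Benjamini-Hochberg adjustment ran over all of them, with a threshold of 0.05. The SE is the absolute log2 fold change divided by the square root of F, and intervals cover 95%. The common dispersion gives a biological coefficient of variation of 2.75%, small enough for the test to call small differences. The test was checked on simulated data. Alternatives included DESeq2 1.42.0, other scalings and filters, leaving out each library, and a replicate block. RefSeq (GRCh38.p14) gave positions for 12660 tested genes by transcript accession, and GENCODE 29 gave transcript lengths, with none matched for WWTR1. The genes and lists were chosen with earlier results of these data known. Named are the 10 genes, the 3 profiles nearest to AMOT, and up to 4 called genes with the smallest p in each list, or 2 by CPM where none was called; 1 gene that this rule names is not reported here. Neighbouring genes were named by position, and other genes, most of them not called, after their values were seen.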

Additional observations from a re-analysis of the deposited data

How the results depend on the processing

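Directions and calls were recomputed under 14 alternatives. AMOT, AMOTL2, AJUBA, YAP1, WWTR1 and CTGF kept their direction in all of them, and their call in all but the test against a change of 1.5-fold, which of these AMOT alone passed. That test called 373 genes in all, 153 higher and 220 lower, among them 1 of the 10 Hippo genes (0 higher and 1 lower) and 3 of the other pathway genes (3 higher and 0 lower), which follows from the stricter question it asks. With 1 library left out at a time, the lower calls among the other pathway genes ran from 7 to 12. TEAD1, called under no setting, had a log2 fold change of -0.00864 with scaling factors from genes off chromosomes 4 and 11, and ran from -0.00749 to 0.013 with 1 library left out, below 0 without eGFP replicate 1 (-0.00139) or TAF2 replicate 2. The cause was not tested. The median log2 fold change over all genes stayed between -0.014 and 0.011 across scalings. Same-numbered libraries of the 2 groups did not deviate together (r = -0.12, -0.27 and -0.17), so the numbers were not taken as pairs. With the replicate block 5250 genes were called in place of 5548, and 7 of the 10 Hippo genes were again called. Depth limits AMOTL1, at 6 to 10 counts a library, and CYR61, at 209 to 299.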
